A study of Mus musculus with 8 samples.

Results

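A set of 10 genes of the muscle atrophy program was followed in mouse hearts, taken as a list of names: the ubiquitin ligase genes Fbxo32, Trim63, Trim54 and Trim55, the forkhead factors Foxo1, Foxo3 and Foxo4, the growth inhibitor Mstn, and the FoxO target genes Sesn1 and Bnip3. They are 10 of the 49315 genes in the deposited count table, and all 10 were among the 16180 genes with enough counts to be tested. Hearts of male and female C57BL/6 mice aged 8 weeks were compared by RNA sequencing, with 4 male and 4 female libraries. No allele or treatment is given for either group, and the animals were all of this 1 inbred strain. Nothing in the labels says whether the libraries are from separate animals, or from the whole heart or a piece of it. The p-values therefore weigh the difference between the sexes against the spread between libraries, which may be in part technical.

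A ubiquitin ligase marks chosen proteins with ubiquitin, and the proteasome then degrades them. In wasting muscle, FoxO transcription factors that have entered the nucleus switch on Fbxo32 (atrogin-1 or MAFbx) and Trim63 (MuRF1), while insulin and IGF signalling through Akt keeps FoxO proteins in the cytoplasm. Myostatin, a secreted factor best known for limiting skeletal muscle growth, acts through activin receptors and Smad proteins, and Fbxo32 and Trim63 are also known to restrain growth of the heart muscle cell.

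Total counts were 39612848 to 47097765 in male and 32746054 to 35467832 in female libraries, and mitochondrial genes took 12.1% to 12.5% of counts in males and 9.96% to 11.4% in females. Each of these measures separated the sexes (p = 0.029 by an exact permutation test, two-sided, which can go no lower with groups of 4). Xist and Ddx3y matched the sex label of 4 of 4 male and 4 of 4 female libraries. CPM values (counts scaled to library size) below are scaled by TMM, which corrects for differences in library composition. The 8 cardiomyocyte markers, among them Myh6 and Tnnt2, were abundant and summed to 76630 to 85620 CPM in male and 82990 to 84190 CPM in female libraries, and 0 of 8 differed between the sexes by the test used below. The 12 skeletal muscle markers summed to 31.0 to 39.3 CPM in male and 32.0 to 37.6 CPM in female libraries, most of it Mybpc2, at 23.4 to 31.95 CPM in males and 25.6 to 31.4 CPM in females. Of these 12, Pax7 had no counts, Myh1, Myh2, Myh4, Myog and Myod1 were below 0.25 CPM in every library, and 6 were tested, with 0 called and 2 at an unadjusted p below 0.05 (edgeR). Of 12 white adipocyte markers, 7 were lower in males, with Adipoq at 1.62 to 4.604 CPM in male and 9.69 to 20.6 CPM in female libraries. The whole adipocyte list, most of which is Lpl and Fabp4, summed to 4548 to 5218 CPM in males and 4581 to 4896 CPM in females. Fibroblast markers summed to 876 to 991 CPM in males and 1074 to 1106 CPM in females, with 2 of 6 lower in males. Leukocyte markers summed to 175.6 CPM in male library 1 and 90.1 to 94.9 CPM in the other male libraries, against 85.4 to 91.6 CPM in female libraries. Endothelial markers summed to 1201 to 1313 CPM in males and 1191 to 1353 CPM in females, with 1 of 6 higher in males. Red cell markers varied widely within each sex, at 2518 to 7630 CPM in males and 556 to 8805 CPM in females. The part of these differences in the results below was not tested, and in whole tissue a change in cell number and a change in RNA per cell cannot be told apart.

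Fbxo32, Trim54, Foxo3 and Sesn1 were higher in male hearts, by 1.16-fold to 1.32-fold, and no member was lower. Trim63, Trim55, Foxo1, Foxo4, Mstn and Bnip3 did not pass the test. Thus 4 of 10 members were called by edgeR's quasi-likelihood test at a Benjamini-Hochberg adjusted p below 0.05, 4 higher and 0 lower in males. Of all genes tested, 613 of 16180 (3.79%) were called, 2.03% higher and 1.76% lower in males. The same 4 members had no overlap between their male and female libraries, where 12.0% of all genes tested showed no overlap and 6.39% did so with the males higher. The median log2 fold change, male minus female, was 0.15 over the 10 members and 0.00 over all genes tested. The members were chosen with earlier results of these data known, so these shares describe the list and do not test it.

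**Figure D1:**
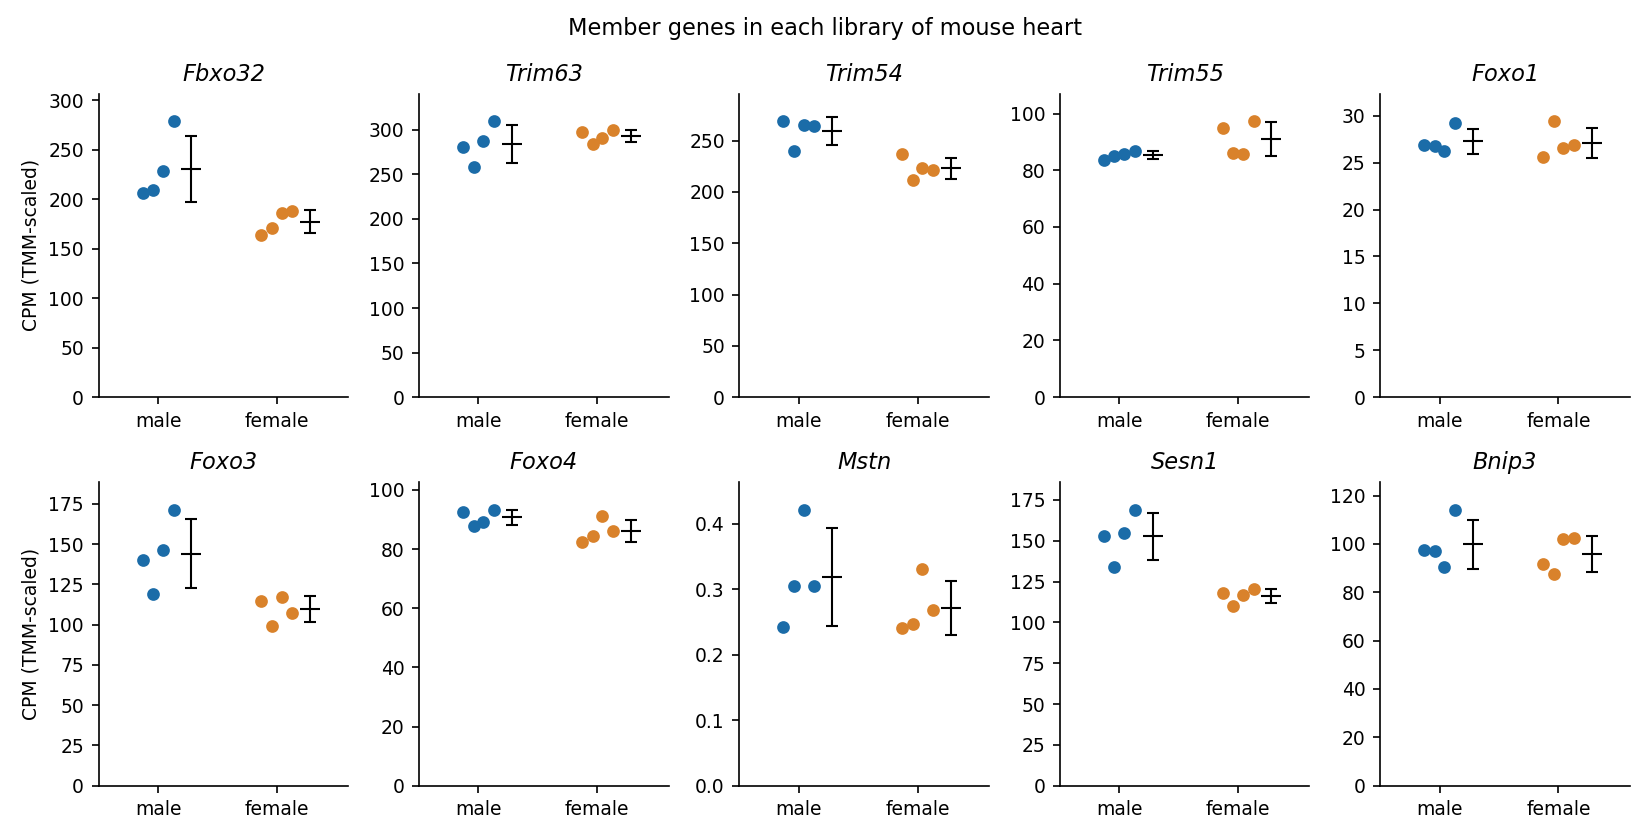
TMM-scaled CPM of each member gene in every library, 4 male (blue, left) and 4 female (orange, right) per panel in replicate order, with the mean and SD in black; each vertical axis starts at 0. In the panels of Fbxo32, Trim54, Foxo3 and Sesn1 all 4 male points lie above all 4 female points, narrowly so for Trim54 and Foxo3, and in the other 6 panels the points overlap.

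**Figure D2:**
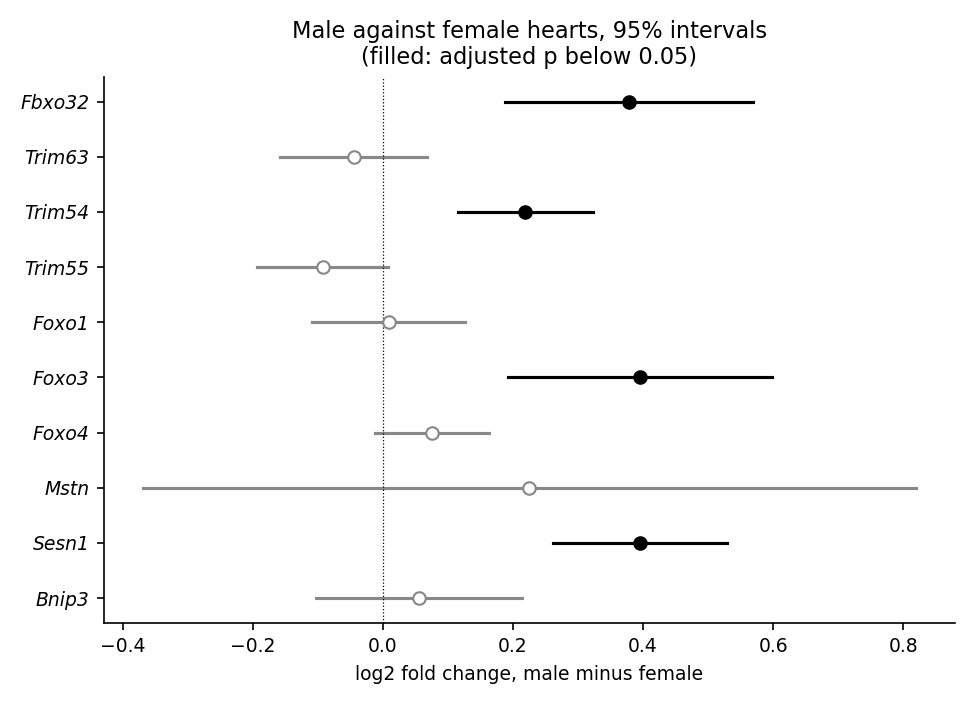
Log2 fold change, male minus female, of the 10 member genes (points) with 95% intervals (lines); filled black points have an adjusted p below 0.05. The intervals of the 4 called genes lie above 0, the other 6 include 0, and that of Mstn is the widest, from -0.37 to 0.82.

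Among the ubiquitin ligases, Fbxo32 encodes an F-box protein, the part of an SCF ligase that picks its substrates. It lies on the minus strand of chromosome 15 (chr15:58175879-58214892, GRCm38). In male libraries 1 to 4 Fbxo32 had 206, 209, 228 and 279 CPM, against 164, 171, 186 and 188 CPM in female libraries 1 to 4. Every male library exceeded every female one, and male library 4 stood well above the other males. Mean levels were 230.3 ± 33.7 CPM in males and 177 ± 11.7 CPM in females (SD, n = 4 each). Fbxo32 was 1.30-fold higher in males (95% interval 1.14 to 1.48), a log2 fold change of 0.38 with an SE of 0.087 (adjusted p = 0.036, edgeR). The call held in 3 of the 8 fits that left out 1 library and was lost without male library 3 or any 1 female library, with an adjusted p of up to 0.096 (without female library 2). Without male library 4 the log2 fold change was 0.27.

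Trim63 encodes MuRF1, a RING-type ligase that binds the M-band region of titin and targets thick filament proteins. The gene lies on the plus strand at chr4:134315120-134329629. Trim63 had 281, 258, 288 and 309.7 CPM in male libraries 1 to 4, against 298, 284, 291 and 299.5 CPM in female libraries 1 to 4. The male libraries spanned both the highest and the lowest of the 8 values, and the groups overlapped. Means were 284 ± 21.4 CPM in males and 293 ± 7.16 CPM in females (SD, n = 4 each), with a log2 fold change of -0.04 (SE 0.051; adjusted p = 0.69, edgeR). The 95% interval ran from a 0.897-fold to a 1.05-fold level in males, so it excludes a difference as large as the one estimated for Fbxo32.

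Both ligase genes are often read together as a pair of atrophy markers, and here their levels did not keep 1 proportion. The ratio of Fbxo32 to Trim63 CPM was 0.733, 0.811, 0.792 and 0.8997 in male libraries 1 to 4, against 0.5497, 0.603, 0.6399 and 0.627 in female libraries 1 to 4. All male ratios lay above all female ratios, with means of 0.809 ± 0.069 in males and 0.605 ± 0.040 in females (SD, n = 4 each). This ratio is within each library and does not depend on the scaling between libraries. It is formed from the same Fbxo32 and Trim63 values as above, so it is not separate evidence, and it was given no test.

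Trim54 encodes MuRF3, a relative of MuRF1 that associates with microtubules and the Z-disc. It lies on the plus strand at chr5:31116712-31137630. Trim54 had 269, 239.5, 265.5 and 264 CPM in male libraries 1 to 4, against 236.5, 211, 223 and 221 CPM in female libraries 1 to 4. The groups did not overlap, but male library 2 was only 1.27% above female library 1. Means were 259.5 ± 13.6 CPM in males and 223 ± 10.3 CPM in females (SD, n = 4 each), a 1.16-fold higher level in males (95% interval 1.08 to 1.251; log2 fold change 0.22, SE 0.047; adjusted p = 0.028, edgeR). The call was kept without male library 2 or female library 1 and lost without any 1 of the other 6 libraries, with an adjusted p of up to 0.082. The antisense gene Gm15469 shares 382 exon bases with Trim54, 26.6% of the Trim54 exons, and had 2549 counts over the 8 libraries against 74996 for Trim54; since no strand setting is given, reads of these genes cannot be told apart there.

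Trim55 encodes MuRF2, which also binds titin. It lies on the plus strand at chr3:19644474-19692421. Trim55 had 83.5 to 86.9 CPM in the 4 male libraries, against 94.8, 85.9, 85.8 and 97.3 CPM in female libraries 1 to 4. Female libraries 1 and 4 were the highest and the groups overlapped. Means were 85.3 ± 1.44 CPM in males and 90.96 ± 5.98 CPM in females (SD, n = 4 each), with a log2 fold change of -0.09 (95% interval -0.19 to 0.01; adjusted p = 0.29, edgeR).

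Set side by side per kb of summed exon length, the 3 MuRF genes made up slightly different shares of their own sum in the sexes. Trim54 gave 57.8% ± 1.04 of the summed CPM per kb in males and 53.1% ± 0.884 in females. Trim63 gave 31.9% ± 1.07 in males and 35.3% ± 0.632 in females, and Trim55 gave 10.3% ± 0.522 in males and 11.7% ± 0.514 in females (SD, n = 4 each). None of the 3 shares overlapped between the sexes, and since they add up to the whole, a higher share of 1 gene lowers the others. They were given no test.

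The sequences before the start sites of Trim63 and Trim54 are shown because 1 of these paralogous genes was called and the other was not. They come from the RefSeq table of windows from 250 bases before to 50 bases after each start site (GRCm38.p6), in which 7 of the 10 members had an entry, with 8 windows in all. Capitals mark the FoxO core motif TGTTTAC, searched on both strands; it was found in 2 of the 8 member windows and in 1199 of all 32851 windows (3.65%). The first window is that of Trim63, the plus strand of chr4:134314870-134315119, with the motif 194 bases before the start. The second, of Trim54, is the plus strand of chr5:31116362-31116611 and holds no match.
Trim63: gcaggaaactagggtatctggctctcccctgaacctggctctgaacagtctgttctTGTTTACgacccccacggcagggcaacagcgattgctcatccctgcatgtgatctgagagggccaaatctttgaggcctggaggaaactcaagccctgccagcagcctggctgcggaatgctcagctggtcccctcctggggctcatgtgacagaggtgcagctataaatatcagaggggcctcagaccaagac
Trim54: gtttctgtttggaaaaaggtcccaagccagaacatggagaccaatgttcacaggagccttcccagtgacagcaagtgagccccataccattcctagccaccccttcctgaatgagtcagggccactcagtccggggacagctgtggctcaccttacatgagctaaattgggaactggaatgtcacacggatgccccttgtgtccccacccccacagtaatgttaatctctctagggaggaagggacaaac
In this pair, chosen by their calls, the motif was in the window of Trim63, which was not called, and not in that of Trim54. The other member window with the motif was that of a start site of Sesn1, which was called. Fbxo32 had no entry. Whether the motif bears on the calls was not tested. A match of 7 letters is a description of this window only.

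FoxO factors are regulated largely by phosphorylation and by their place in the cell, so their mRNA is only 1 side of their activity. Foxo3, a forkhead factor that activates Fbxo32 in atrophying muscle, was the only 1 of these 3 FoxO genes called. It lies on the minus strand at chr10:42181841-42276755. Foxo3 had 140.0, 119, 146 and 171.5 CPM in male libraries 1 to 4, against 114.5, 99.2, 117.5 and 107.5 CPM in female libraries 1 to 4. All males were above all females, though male library 2 was only 1.18% above female library 3, and male library 4 was the highest of the 8. Means were 144 ± 21.7 CPM in males and 109.7 ± 8.15 CPM in females (SD, n = 4 each), 1.32-fold higher in males (95% interval 1.14 to 1.51; log2 fold change 0.40, SE 0.093; adjusted p = 0.04, edgeR). This call was the least stable of the 4: it was kept only without male library 2 and lost in the other 7 fits that left out a library, with an adjusted p of up to 0.11. Without male library 4 the log2 fold change was 0.30.

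Foxo1, which acts with Foxo3 on many of the same target genes, lies on the plus strand at chr3:52268336-52353221. It had 26.9, 26.8, 26.2 and 29.2 CPM in male libraries 1 to 4, against 25.6, 29.4, 26.5 and 26.9 CPM in female libraries 1 to 4. The groups overlapped throughout, with means of 27.3 ± 1.32 CPM in males and 27.1 ± 1.64 CPM in females (SD, n = 4 each). The log2 fold change was 0.01 (95% interval -0.11 to 0.13; adjusted p = 0.95, edgeR), and its sign turned to -0.01 when all libraries were thinned to the smallest total.

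Foxo4, an X-linked member of the family, lies on the plus strand at chrX:101254528-101260873. It had 92.4, 87.9, 89.2 and 93.3 CPM in male libraries 1 to 4, against 82.5, 84.3, 91.3 and 86.2 CPM in female libraries 1 to 4. The groups overlapped through female library 3. The log2 fold change was 0.08 (95% interval -0.01 to 0.16; adjusted p = 0.33, edgeR), with means of 90.7 ± 2.57 CPM in males and 86.1 ± 3.80 CPM in females (SD, n = 4 each).

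Per kb of exon and among these 3 genes alone, Foxo4 had the highest level and Foxo1 the lowest. Foxo4 made up 54.1% ± 2.79 of the summed CPM per kb of the 3 genes in males and 58.4% ± 1.19 in females. Foxo3 made up 39.3% ± 3.05 in males and 34.2% ± 1.68 in females, and Foxo1 6.54% ± 0.329 in males and 7.41% ± 0.665 in females (SD, n = 4 each). All 3 shares overlapped between the sexes.

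Mstn was close to the limit of detection. It lies on the plus strand at chr1:53061640-53068079 and had 92 counts in all 8 libraries together, 8 to 18 in each. In male libraries 1 to 4 it had 0.243, 0.304, 0.422 and 0.306 CPM, against 0.242, 0.247, 0.331 and 0.269 CPM in female libraries 1 to 4. The groups overlapped. The log2 fold change was 0.23 (SE 0.27; adjusted p = 0.73, edgeR), and the 95% interval from 0.774-fold to 1.77-fold means that a difference of the size seen for Fbxo32 was not detectable at this depth.

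Of the FoxO target genes, Sesn1 gave the firmest result. It encodes sestrin 1, a stress-induced inhibitor of mTORC1 signalling that p53 and FoxO factors activate. The gene lies on the plus strand at chr10:41809935-41908424. Sesn1 had 153, 134, 155 and 169 CPM in male libraries 1 to 4, against 118, 109.8, 117 and 120.2 CPM in female libraries 1 to 4. The lowest male library was 11.5% above the highest female one, the widest such gap among the members. Means were 153 ± 14.4 CPM in males and 116 ± 4.49 CPM in females (SD, n = 4 each), a 1.32-fold higher level in males (95% interval 1.20 to 1.44; log2 fold change 0.40, SE 0.061; adjusted p = 0.0063, edgeR). The call held in 8 of 8 fits that left out a library, with an adjusted p of up to 0.024 (without male library 3).

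Bnip3, a BH3-only protein of the outer mitochondrial membrane that promotes mitophagy, lies on the minus strand at chr7:138890836-138909519. It had 97.5, 97.1, 90.3 and 114 CPM in male libraries 1 to 4, against 91.8, 87.7, 102 and 102.5 CPM in female libraries 1 to 4. Male library 4 was the highest, and the groups overlapped. Means were 99.8 ± 10.2 CPM in males and 96.0 ± 7.46 CPM in females (SD, n = 4 each), with a log2 fold change of 0.06 (95% interval -0.10 to 0.21; adjusted p = 0.73, edgeR). Without male library 4 the value was -0.02.

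Male library 4 was the highest of the 4 males in Fbxo32, Trim63, Trim55, Foxo1, Foxo3, Foxo4, Sesn1 and Bnip3, but not in Trim54, where male library 1 was highest, or Mstn, where male library 3 was. Male library 4 also had the largest total, 47097765 counts, and the lowest summed fibroblast markers, 876 CPM. Its white adipocyte markers summed to 5218 CPM, the highest of all libraries, and its Adipoq, at 4.604 CPM, was the highest among males. The part of these measures was not tested. The male libraries of Fbxo32 had a coefficient of variation of 14.6%, against 6.58% in the female libraries, and those of Foxo3 had 15.02%, against 7.43% in the female libraries.

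Sesn1 and Foxo3 are neighbours on chromosome 10, 273 kb apart, and were considered together after their values were seen. Both were 1.32-fold higher in males, and the ratio of Sesn1 to Foxo3 CPM was 1.07 ± 0.060 in males and 1.06 ± 0.060 in females (SD, n = 4 each). Within 500 kb of either gene, 35 genes are annotated and 13 were tested. Sesn1 and Foxo3 were the 2 called; the other 11 had log2 fold changes of -0.31 to 0.07, with no adjusted p below 0.19 (edgeR). Armc2, an armadillo repeat gene and the only tested gene between them, had 39.1 ± 3.27 CPM in males and 39.95 ± 2.001 CPM in females (SD, n = 4 each), with a log2 fold change of -0.03 (adjusted p = 0.83, edgeR).

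The windows of these neighbours are shown for comparison with those of the ligases. Foxo3 is given on the minus strand of chr10:42276756-42276945, 190 bases ahead of its first annotated exon, and holds no TGTTTAC. Sesn1 has 2 start sites in the table. Both windows lie within the annotated gene. The second is given as the plus strand of chr10:41887189-41887438 and holds no match. At the first, the motif lies 22 bases after the start, shown in capitals with 7 bases on each side at chr10:41810589-41810609 on the plus strand. The rest of that window is not shown, since an annotated exon reaches into the bases before that start.
Foxo3: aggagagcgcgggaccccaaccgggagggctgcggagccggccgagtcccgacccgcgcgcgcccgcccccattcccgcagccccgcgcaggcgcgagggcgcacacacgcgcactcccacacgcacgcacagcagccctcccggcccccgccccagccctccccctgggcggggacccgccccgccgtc
Sesn1, second start site: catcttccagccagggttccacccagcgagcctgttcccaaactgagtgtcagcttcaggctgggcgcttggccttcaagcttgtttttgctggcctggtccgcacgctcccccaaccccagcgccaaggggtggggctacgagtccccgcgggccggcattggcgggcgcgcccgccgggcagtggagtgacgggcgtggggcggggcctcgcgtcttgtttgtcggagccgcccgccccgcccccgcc
Sesn1, first start site: cttctacTGTTTACcagcctt
The Foxo3 stretch has 81.6% G and C and that of the second Sesn1 site 71.2%, against 56.8% for Trim63 and 52.8% for Trim54. No match says only that these letters are not in the window.

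**Figure D3:**
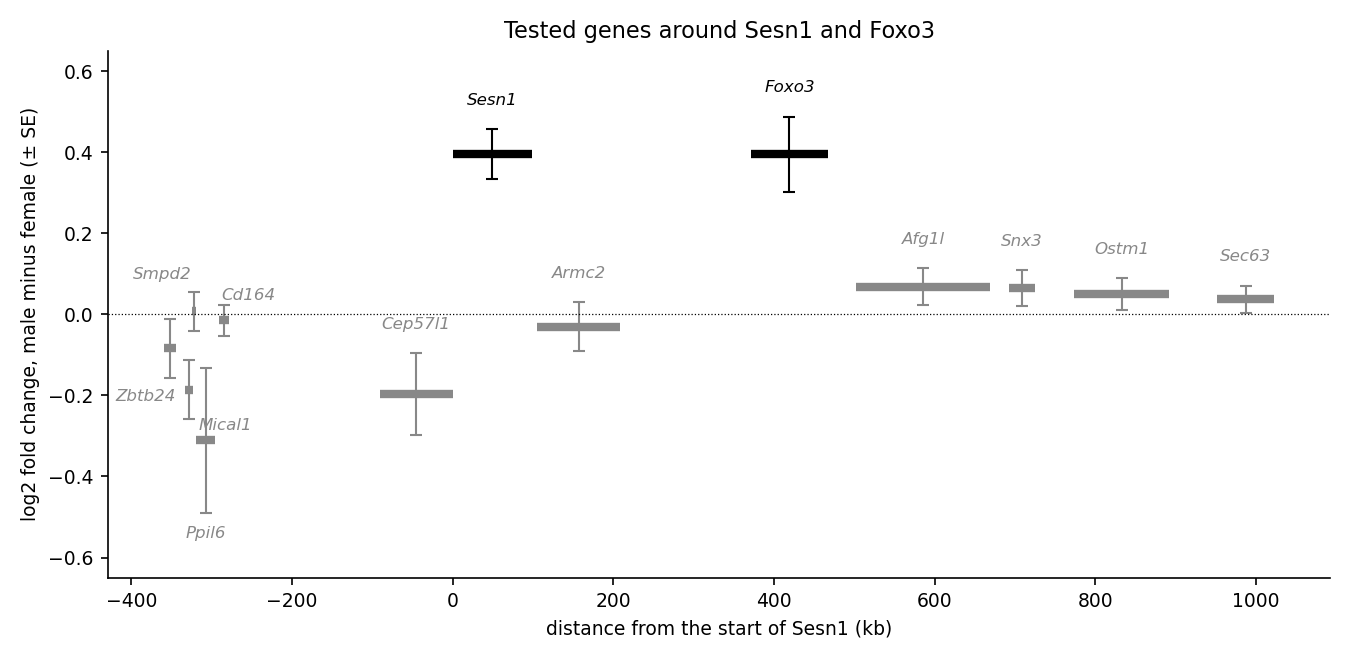
Log2 fold change, male minus female, of the 13 tested genes within 500 kb of Sesn1 or Foxo3 on chromosome 10; each thick bar spans a gene along the distance from the start of Sesn1 in kb, and thin bars are the SE. Sesn1 and Foxo3 (black, adjusted p below 0.05) lie near 0.40, and the other 11 genes (grey) between -0.31 and 0.07.

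Per kb of exon, the members covered a wide range of levels in the heart. Trim54 was the highest at a mean of 168 CPM per kb over the 8 libraries, followed by Trim63 at 101.5. Bnip3 had 43.2, Sesn1 33.8, Trim55 33.1, Fbxo32 29.4 and Foxo4 25.4 CPM per kb, and each of these overlapped its neighbour in the order. Foxo3 at 16.8, Foxo1 at 3.14 and Mstn at 0.109 CPM per kb were each separated from their neighbours in all 8 libraries, as were Trim54 from Trim63 and Trim63 from Bnip3. By this mean, Trim54 stood above 98.3% of the genes tested and Mstn above 3.88%.

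**Figure D4:**
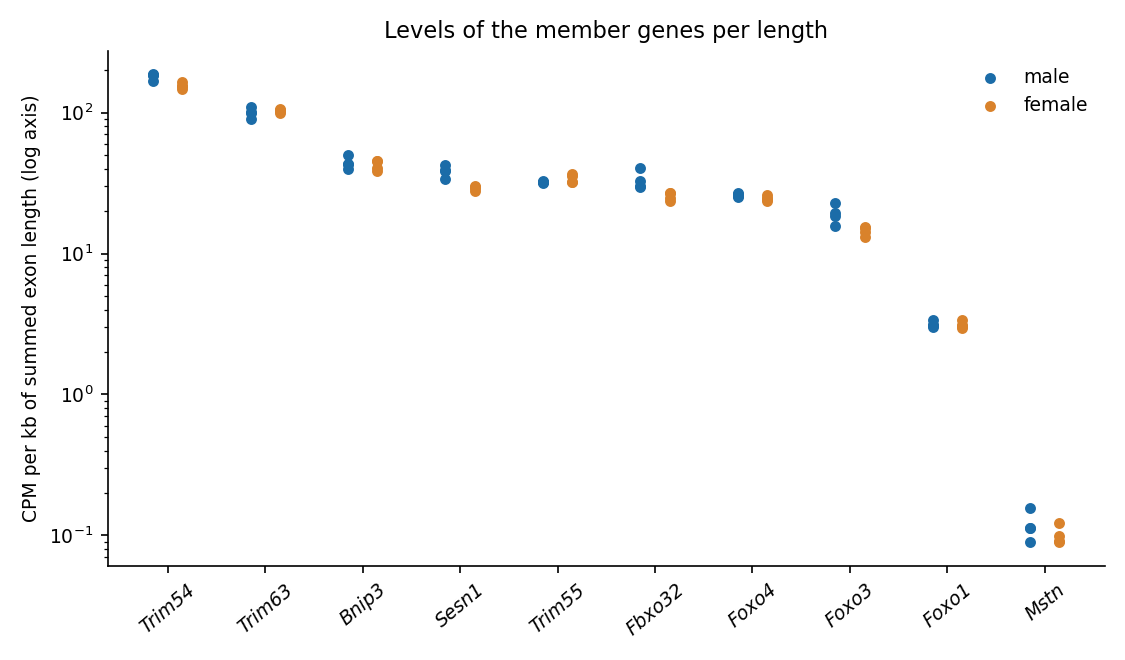
CPM per kb of summed exon length for each member gene in the 4 male (blue, left) and 4 female (orange, right) libraries, on a log axis, in the order of the mean over all 8. Trim54 and Trim63 lead with means of 168 and 101.5 CPM per kb, and Mstn is lowest at 0.109.

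The genes whose profile over the 8 libraries was nearest to that of Fbxo32 were Phyhd1, Slc25a33 and Pde7a, by the root mean square difference of log2 CPM after each gene was centred on its own mean. Their distances were 0.0615 for Phyhd1, which encodes a dioxygenase domain protein, 0.0624 for Slc25a33, a mitochondrial carrier of pyrimidine nucleotides, and 0.068 for Pde7a, a phosphodiesterase that degrades cAMP. Among 11532 genes compared, Sesn1 ranked 18th with a distance of 0.0948 and Foxo3 ranked 32nd with 0.106, while Trim63 ranked 4314th. The genes nearest to Trim63 were Trappc12 at 0.0241, Nufip2 at 0.0295 and Tspyl1 at 0.0311, and Fbxo32 ranked 10497th. Each distance describes 8 libraries, 4 of each sex, and so also holds the difference between the sexes.

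Beyond the members, 163 other genes of the pathway in 6 lists were read from the same fit. Of these, 5 were higher in males, 3 were lower and 155 did not pass the test, so 4.91% were called, against 3.79% of all genes tested. Their median log2 fold change was 0.04, and 107 of 163 values were above 0, where 8044 of all 16180 genes tested (49.7%) were. The lists did not share this evenly. Values above 0 ranged from 7 of 22 for myostatin and activin signalling and 8 of 23 for insulin and IGF signalling to 41 of 43 for proteasome and ubiquitin genes. These lists too were chosen with earlier results of these data known, and the shares were given no test.

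Of 25 other muscle and SCF ubiquitin ligase genes, 0 were higher and 1 was lower in males, with a median log2 fold change of 0.02 and 15 of 25 values above 0. The gene that fell was Fbxw7, an F-box protein that targets cyclin E and Myc, with 53.6 ± 2.42 CPM in males and 62.9 ± 2.82 CPM in females (SD, n = 4 each; log2 fold change -0.23, adjusted p = 0.017, edgeR). Its call was lost without male library 3 (adjusted p = 0.056).

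Of 23 genes of insulin and IGF signalling to FoxO, 2 were higher and 1 was lower in males, with a median log2 fold change of -0.07 and 8 of 23 values above 0. Pik3ip1, an inhibitor of phosphoinositide 3-kinase, had 66.8 ± 6.91 CPM in males and 49.9 ± 4.15 CPM in females (SD, n = 4 each; log2 fold change 0.42, adjusted p = 0.012, edgeR), and kept its call in 8 of 8 fits that left out a library. Pik3r1, a regulatory subunit of the kinase, had 169 ± 25.5 CPM in males and 124 ± 10.9 CPM in females (SD, n = 4 each; log2 fold change 0.44, adjusted p = 0.027, edgeR). Pik3r1 lost its call without male library 3 or female library 1, 2 or 4 (adjusted p up to 0.078). Ywhaz, a 14-3-3 protein that binds phosphorylated FoxO, was lower, with 65.9 ± 1.42 CPM in males and 72.5 ± 1.43 CPM in females (SD, n = 4 each; log2 fold change -0.14, adjusted p = 0.046, edgeR), and lost its call without any 1 of the 8 libraries (adjusted p up to 0.11).

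Of 22 genes of myostatin and activin signalling, 0 were higher and 1 was lower in males, with a median log2 fold change of -0.04 and 7 of 22 values above 0. It was Smad3, which carries the signal of activin-type receptors to the nucleus, with 24.7 ± 0.841 CPM in males and 28.6 ± 1.13 CPM in females (SD, n = 4 each; log2 fold change -0.21, adjusted p = 0.026, edgeR). The call was lost without male library 1 or 4 or female library 2 or 4 (adjusted p up to 0.065). The largest difference in the list, chosen after its values were seen, was that of the low receptor gene Acvr1c, also an adipocyte gene, with 0.238 ± 0.130 CPM in males and 0.828 ± 0.514 CPM in females (SD, n = 4 each; log2 fold change -1.78, adjusted p = 0.072, edgeR). Adipoq and 6 other adipocyte markers were lower in males, as given above, and their part was not tested.

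Of 26 other FoxO target genes, 3 were higher and 0 were lower in males, with a median log2 fold change of 0.06 and 20 of 26 values above 0. Txnip, an inhibitor of thioredoxin and of glucose uptake, had 597, 714, 813 and 694 CPM in male libraries 1 to 4, against 397, 413, 329 and 356 CPM in female libraries 1 to 4. Every male library was far above every female one, and Txnip was 1.89-fold higher in males, a log2 fold change of 0.91 with an SE of 0.091 (adjusted p = 0.00033, edgeR), a call kept in 8 of 8 fits that left out a library. Bcl6, a transcriptional repressor, had 44.3, 32.1, 44.2 and 44.3 CPM in male libraries 1 to 4, against 18.7, 23.0, 30.4 and 29.4 CPM in female libraries 1 to 4. The groups of Bcl6 did not overlap, male library 2 lying nearest to the females, and it was 1.62-fold higher in males (adjusted p = 0.022, edgeR), a call lost without male library 3 or 4 or female library 2 (adjusted p up to 0.067). Pik3ip1, described above, was the third.

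Of 28 autophagy and mitophagy genes, 1 was higher and 0 were lower in males, with a median log2 fold change of 0.03 and 19 of 28 values above 0. It was Optn, an autophagy receptor for ubiquitin-marked cargo, with 105 ± 6.01 CPM in males and 88.3 ± 3.73 CPM in females (SD, n = 4 each; log2 fold change 0.25, adjusted p = 0.016, edgeR), lost without female library 3 (adjusted p = 0.051).

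Of 43 proteasome and ubiquitin genes, 0 were called in either direction by edgeR, DESeq2 or limma-voom, and 8 (18.6%) had an unadjusted edgeR p below 0.05, where 3154 of all 16180 genes tested (19.5%) had one. The median log2 fold change of the list was 0.06, with 41 of 43 values above 0, against a median of 0.00 over all genes tested. Upper quartile scaling, DESeq2 size factors and the removal of mitochondrial genes left 41 of 43 above 0, with medians of 0.05 to 0.06. The member with the smallest p was Psmd6, a subunit of the proteasome's regulatory particle, with 63.9 ± 0.864 CPM in males and 59.2 ± 1.69 CPM in females (SD, n = 4 each; log2 fold change 0.11, adjusted p = 0.096, edgeR).

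**Figure D5:**
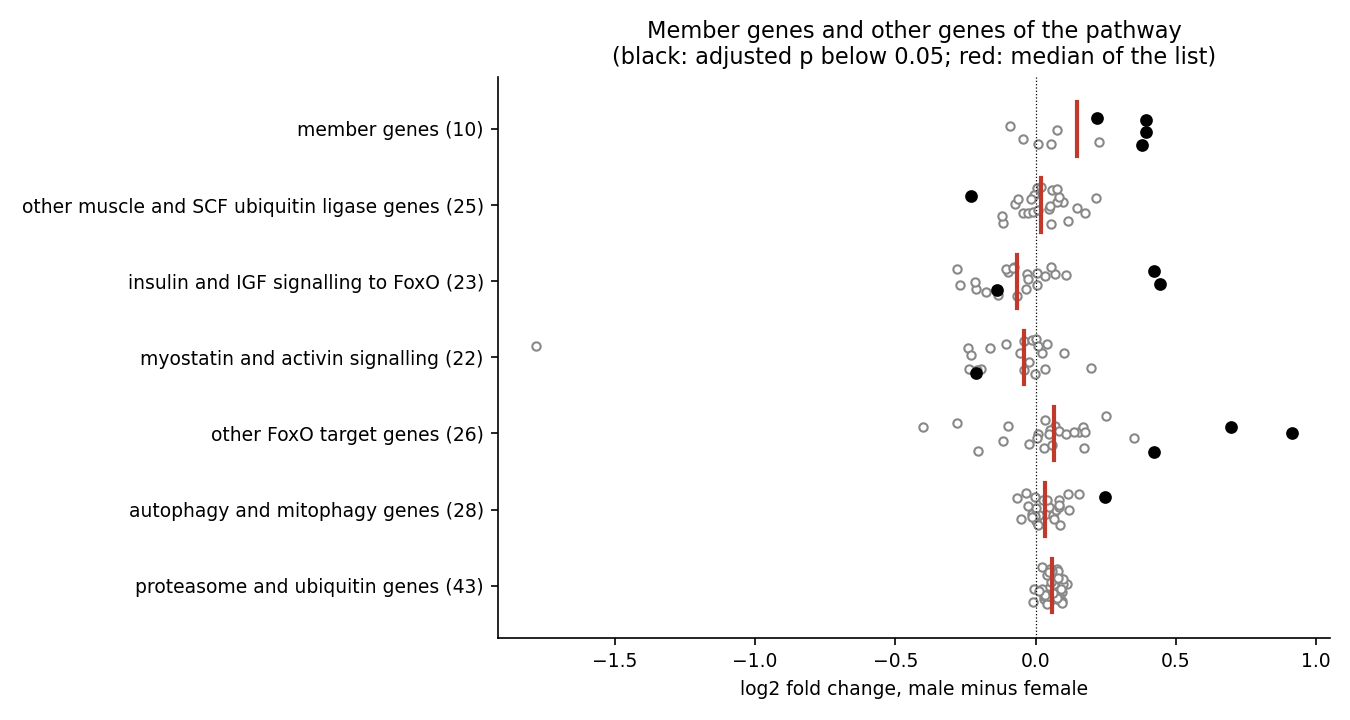
Log2 fold change, male minus female, of the 10 member genes and of the 6 lists of other pathway genes (number of genes in brackets, 1 point per gene, spread vertically at random within a list); black points have an adjusted p below 0.05 and red lines are medians. The median is 0.15 for the member genes and from -0.07 to 0.06 for the other lists, Txnip lies farthest to the right at 0.91 and Acvr1c farthest to the left at -1.78.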

How the data were processed

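Per the labels' protocols, hearts were extracted in Trizol and 1 µg of RNA per library went into a TruSeq preparation. The submitters' processing notes name Trimmomatic 0.36, STAR 2.5.2b, featureCounts of Subread 1.5.2 and GRCm38 (mm10), without their order. Whether counting used strand, and how it handled multi-mapping reads, is not given in the sources used here, so shared reads of the MuRF and FoxO paralogs cannot be checked. The authors deposited raw counts per gene, equal to those of the 8 single-library tables (100% of values), with exon coordinates, which are used here. The authors also deposited a normalized signal for 16160 genes, the count divided by a size factor of 0.864 to 1.20 per library; multiplied back, 100% of values were whole within 0.01. Of the IDs, 48970 matched a symbol.

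From the counts, genes were kept by filterByExpr (minimum count 10, minimum total 15), TMM factors were computed, and the quasi-likelihood test of edgeR 4.0.16 (R 4.3.3) was run, male minus female, over all 16180 genes kept, with Benjamini-Hochberg adjustment. The threshold was 0.05. The fit gave a common biological coefficient of variation of 0.0814. CPM used TMM-scaled totals, and log2 CPM a prior count of 2. Before TMM scaling, 1 count was worth 0.0212 to 0.0252 CPM in males and 0.0282 to 0.0305 CPM in females. Intervals of fold changes are 95% intervals of the fitted coefficient.

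The members, gene lists and marker lists were chosen with earlier results of these data known. Of the pathway lists, 2 genes are not reported here and were left out of the lists' counts. Named were the 10 members, up to 3 called genes per pathway list and direction by smallest p (where none was called, the gene with the smallest p), and the 3 genes nearest to Fbxo32 and to Trim63 among genes at a mean of 1 or more on the log2 CPM scale. Alternatives were DESeq2 1.42.0 and its size factors, upper quartile scaling, no filter, 1 CPM in at least 4 libraries, limma 3.58.1 (voom, and on the log2 of the deposited signal plus 1), a replicate block, thinning, removal of mitochondrial genes, and leaving out each library.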

Additional observations from a re-analysis of the deposited data

Results flagged for a closer look

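In 38 groups of 4 libraries examined (the members and named pathway genes, each sex apart), 2 had a library far from the others by Dixon's ratio of the gap to the range, at the 95% critical value; chance flags about 1 in 20 groups. Trim54 in male library 2 was the lowest male value at 239.5 CPM, with the next at 264 CPM (ratio 0.836), and is the library nearest to the females. Bcl6 in male library 2 was lowest at 32.1 CPM, with the next male at 44.2 CPM (ratio 0.992).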

How the results depend on the processing

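The same 4 members were called in all 10 alternatives that kept every library. There, 98 of 99 member values kept their direction and, where they had an adjusted p, their side of the threshold. The exception was Foxo1, at -0.012 when libraries were thinned to the smallest total. The genes called of all tested were 613, 957 with DESeq2 and 427 with a replicate block, and 315 to 490 when 1 library was left out. The same replicate numbers did not deviate together (correlations -0.047 to 0.054), and with the replicate block 4 members were called. Leaving out 1 library gave 1 to 4 members called, with Sesn1 called in every such fit: 1 without male library 3 or female library 2, 3 or 4, 2 without male library 1 or 4 or female library 1, and 4 without male library 2. In these fits the log2 fold change, male minus female, ranged from 0.27 to 0.43 for Fbxo32, 0.19 to 0.26 for Trim54, 0.30 to 0.48 for Foxo3, 0.34 to 0.45 for Sesn1, -0.089 to -0.00084 for Trim63, -0.12 to -0.06 for Trim55, 0.06 to 0.10 for Foxo4, 0.06 (without male library 3) to 0.33 for Mstn, -0.026 to 0.049 for Foxo1 and -0.015 to 0.102 for Bnip3. Of the 163 other pathway genes, 8 were called by edgeR, 15 by DESeq2 and 8 by limma-voom. Among the 9 named pathway genes, Psmd6 was not called in any alternative, Ywhaz lost its call with no filter, the replicate block or thinning, and Smad3 with the replicate block (adjusted p = 0.058). Mstn, at 8 to 18 counts per library, was 0.41 when thinned and has no value with the 1 CPM filter and no adjusted p in DESeq2.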
